A study of Homo sapiens with 6 samples.

Results

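The 49 genes described here encode the machinery that copies DNA and the regulators that admit a cell from G1 into S phase. They were chosen by name, as the rows of the deposited count table whose symbol was on a list of origin licensing, replication fork, nucleotide supply and G1/S genes, and all 49 were found among the 58051 genes of the table. The study measured polyadenylated RNA from HEK293T, an embryonic kidney cell line with the SV40 T-antigen, 48 h after transient transfection. The control group received the empty plasmid pcDNA3.1- (3 libraries) and the other group the ppk1 expression plasmid derived from it, pcDNA3.1-ppk1+ (3 libraries). The gene ppk1 encodes a bacterial polyphosphate kinase, an enzyme that makes long chains of phosphate. Libraries B, C and D of one group were the matched biological replicates of B, C and D of the other. Both groups carried the T-antigen and both were kept in OptiMEM after transfection. The protocol names plasmids with and without an HA tag, Lipofectamine reagents and a range of plasmid amounts, without saying which applied to which library. The transfected gene itself was not analysed here, and the share of cells that took up the plasmid was not given.

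Replication starts from origins that are licensed in G1, when the origin recognition complex, CDC6 and CDT1 load the MCM helicase onto DNA. Cyclin D with CDK4 or CDK6, and then cyclin E with CDK2, phosphorylate the retinoblastoma protein and its relatives, which releases E2F factors to switch on many of the genes on this list. In HEK293T cells large T antigen binds the retinoblastoma family, so E2F targets are known to be active in them without the usual signal from cyclin D.

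The promoters of the members are shown for the genes on which the results turn. The RefSeq promoter table (GRCh38.p14) held 39 of the 49 members. The table did not list MCM4, MCM5, GINS4, RPA2, CCND1, CCND2, CCNE2, CDK2, CDKN1C and E2F8. In the 250 bases before the start site, 1 of 4 spellings of the E2F motif (TTTCCCGC, TTTGGCGC, TTTCGCGC or TTTGCCGC, searched on both strands) was present in 15 of 39 members, or 38.5%, against 3.40% of all 27305 genes in the table. CCAAT, the box read by the factor NF-Y, was present in 24 of 39 members (61.5%, against 37.0% of all genes), and TTTGAA or TTCGAA, the core of the CHR element of G2/M promoters, in 2 of 39 (5.13%, against 17.2%). No spelling contains another of these motifs. The sites of 6 members are given because these genes represent licensing, its inhibitor, the factor itself, the clamp, a fork polymerase and nucleotide supply. Capitals mark the E2F letters, and each site is written 5′ to 3′ on the strand that carries those letters.
CDT1 (chr16:88803743-88803772, minus strand): ttcccgccaaaTTTCCCGCgggcgccctgg
GMNN (chr6:24775322-24775351, plus strand): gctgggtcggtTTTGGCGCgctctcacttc
E2F1 (chr20:33686387-33686416, minus strand): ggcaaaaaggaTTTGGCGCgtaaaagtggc
PCNA (chr20:5126663-5126692, plus strand): aacgcacgcctTTTCCCGCccctgacgctg
POLE (chr12:132687343-132687371, plus strand): aggggagaaaTTTGGCGCgctcccaccca
TYMS (chr18:657603-657632, minus strand): tccgcgcgcctTTTCCCGCggccgtcccgc

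The 250 bases before a start site are shown for 3 more genes. They belong to RRM2 and CCND3, the members that passed the test of ppk1 against empty vector, and to CDKN1B, the member nearest to it on the lower side. Capitals mark CCAAT on the strand printed, which is the strand of the gene. RRM2 and CCND3 have more than 1 start site in the table, and the window of 1 start is shown for each. The RRM2 window not shown (chr2:10122489-10122738) holds CCAAT 3 times. Of the CCND3 windows not shown, that at chr6:42048689-42048938 holds none, and that at chr6:41939206-41939455 holds 1 on the opposite strand.
RRM2 (chr2:10122318-10122567, plus strand): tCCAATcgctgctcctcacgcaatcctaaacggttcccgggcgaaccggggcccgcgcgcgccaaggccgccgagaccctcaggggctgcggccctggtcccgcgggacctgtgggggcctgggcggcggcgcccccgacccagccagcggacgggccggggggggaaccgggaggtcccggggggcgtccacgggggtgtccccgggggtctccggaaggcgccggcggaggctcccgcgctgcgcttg
CCND3 (chr6:41941809-41942058, minus strand): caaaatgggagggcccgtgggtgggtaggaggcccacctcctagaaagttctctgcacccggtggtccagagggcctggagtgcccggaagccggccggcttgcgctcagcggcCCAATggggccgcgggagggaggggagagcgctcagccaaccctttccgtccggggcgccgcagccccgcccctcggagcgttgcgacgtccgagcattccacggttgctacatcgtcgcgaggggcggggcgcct
CDKN1B (chr12:12717118-12717367, plus strand): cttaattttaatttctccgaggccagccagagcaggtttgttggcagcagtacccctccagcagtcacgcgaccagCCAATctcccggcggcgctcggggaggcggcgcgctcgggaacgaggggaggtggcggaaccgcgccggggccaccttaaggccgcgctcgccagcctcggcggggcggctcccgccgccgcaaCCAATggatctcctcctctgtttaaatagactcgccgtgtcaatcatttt
The E2F letters were in no window of these 3 genes, which says only that those spellings are not in these stretches.

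The libraries held 40851783 to 67122986 counts. All 49 members passed the low-count filter in the 19574 genes tested, with 156 counts (CDKN1C) to 36494 counts (MCM7) per library. All 8 markers of the line fixed for the check (VIM, NEFM, NEFL, CDH2, KRT8, KRT18, PAX2 and LHX1) were detected in every library, PAX2 at the lowest level with 113 to 230 counts. Of 10 markers of fibroblasts, blood cells and hepatocytes, DCN, COL1A2, PTPRC, HBB, CD3E and TTR had at most 4 counts in any library, and LUM, PDGFRA, ALB and APOA1 had 9 to 62.

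Levels are given as CPM, the counts per 1000000 counts of the TMM-scaled library, and divided by exon length in kilobases where genes are compared with each other. Exon length is that of the merged exons of all annotated transcripts of a gene, which can be longer than any single transcript. Orders by level per kilobase hold for that length and may differ for the transcripts expressed. Per kilobase, the sliding clamp PCNA was the highest member in the empty vector libraries at 199 ± 18.3 CPM per kb (SD, n = 3). MCM7 followed at 120.5 ± 0.405 and MCM3 at 99.5 ± 0.692 CPM per kb, and these 3 levels did not overlap. The other MCM subunits were spread below them, from MCM4 at 68.1 to MCM5 at 24.6 CPM per kb. The G1 cyclins were at the low end, from 4.76 to 12.1 CPM per kb, whereas the CDK inhibitors ranged from CDKN1B at 19.6 to CDKN1C at 1.91. Among D cyclins CCND2 was highest per kilobase of merged exon at 12.1 ± 1.26, ahead of CCND3 at 6.45 ± 0.431 and CCND1 at 4.76 ± 0.538. CCNE2 at 6.46 ± 1.16 CPM per kb did not differ from CCND3 beyond the spread. The lowest member was CDKN1C, the p57 inhibitor, at 1.91 ± 0.118 CPM per kb.

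**Figure D1:**
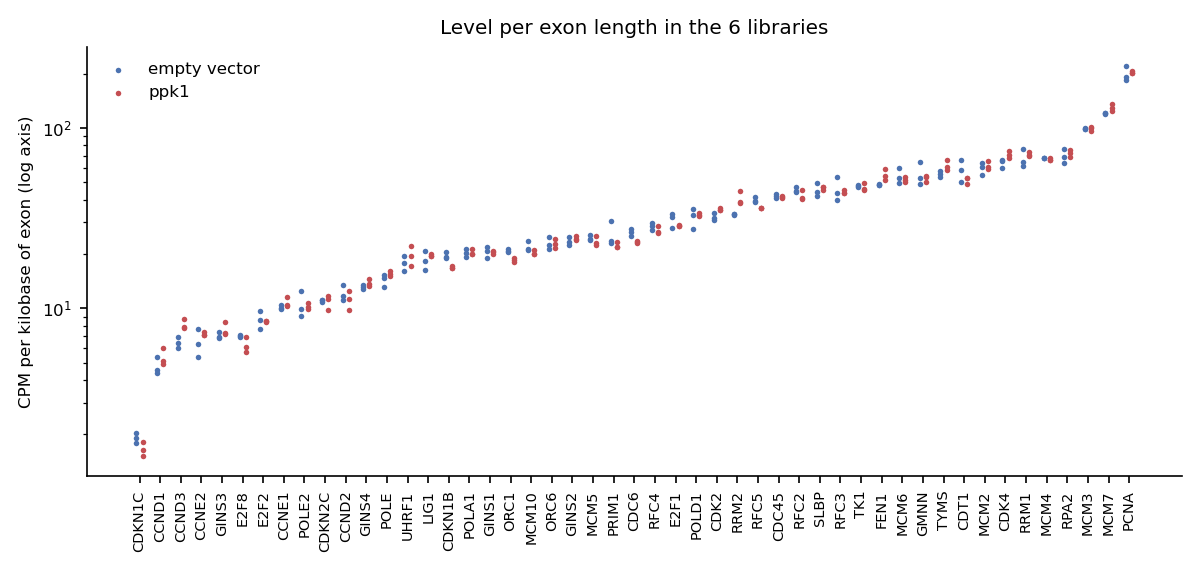
Level of each of the 49 members in the 6 libraries, as CPM per kilobase of exon on a log axis, with empty vector and ppk1 libraries in different colours. PCNA stands highest, at 199 CPM per kb in the empty vector group, and CDKN1C lowest, at 1.91.

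Whether proliferation genes differed after ppk1 transfection was asked with edgeR's quasi-likelihood test over all genes, with the replicate letter as a block and a Benjamini-Hochberg adjusted p of 0.05 as the threshold. Counts of calls are from this fit, with all 3 pairs and no GC offset, unless another setting is named. Of the 49 members 2 were called, or 4.08%, against 9.08% of all genes tested. Both, CCND3 and RRM2, were higher with ppk1 (4.04% of all genes were called higher). No member was called lower by edgeR (5.04% of all genes were), nor by DESeq2, which called 2.51% of all genes lower, and 7 members were lower at an unadjusted p below 0.05. Taken in either direction, 14 members had an unadjusted p below 0.05, which is 28.6% of members against 23.8% of all genes. Of these 7 were higher (12.2% of all genes) and 7 lower (11.6%). The groups did not overlap in CPM for 13 members, which is 26.5% against 25.6% of all genes. Of these 7 were higher (13% of all genes) and 6 lower (12.6%). The difference had the same sign in all 3 pairs for 19 members, or 38.8%, against 43.8% of all genes. The shares of members at the unadjusted threshold and without overlap were near those of all genes.

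The differences were small. The members' log2 fold changes, as ppk1 against empty vector, ran from -0.22 (CDKN1B) to 0.33 (CCND3), with 23 above and 26 below 0. Their median was -0.0068, beside 0.0149 for all genes tested, and the median size regardless of direction was 0.0947 against 0.131. Over the 11877 tested genes within the members' range of mean CPM, the median was 0.0278 and the median size 0.0999. Of those genes 10.2% were called, and 26.9% had an unadjusted edgeR p below 0.05. The 95% interval of every member's fold change lay within a 1.5-fold change in either direction. The median member differed by 0.0187 in pair B, 0.0620 in pair C and -0.0467 in pair D. Summed over the 49 members, the level was 6564, 6547 and 6689 CPM with empty vector and 6577, 6915 and 6646 CPM with ppk1, so the groups overlapped. In RNA from a whole culture, the share of cells in S phase and the level of these RNAs per cell cannot be told apart.

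**Figure D2:**
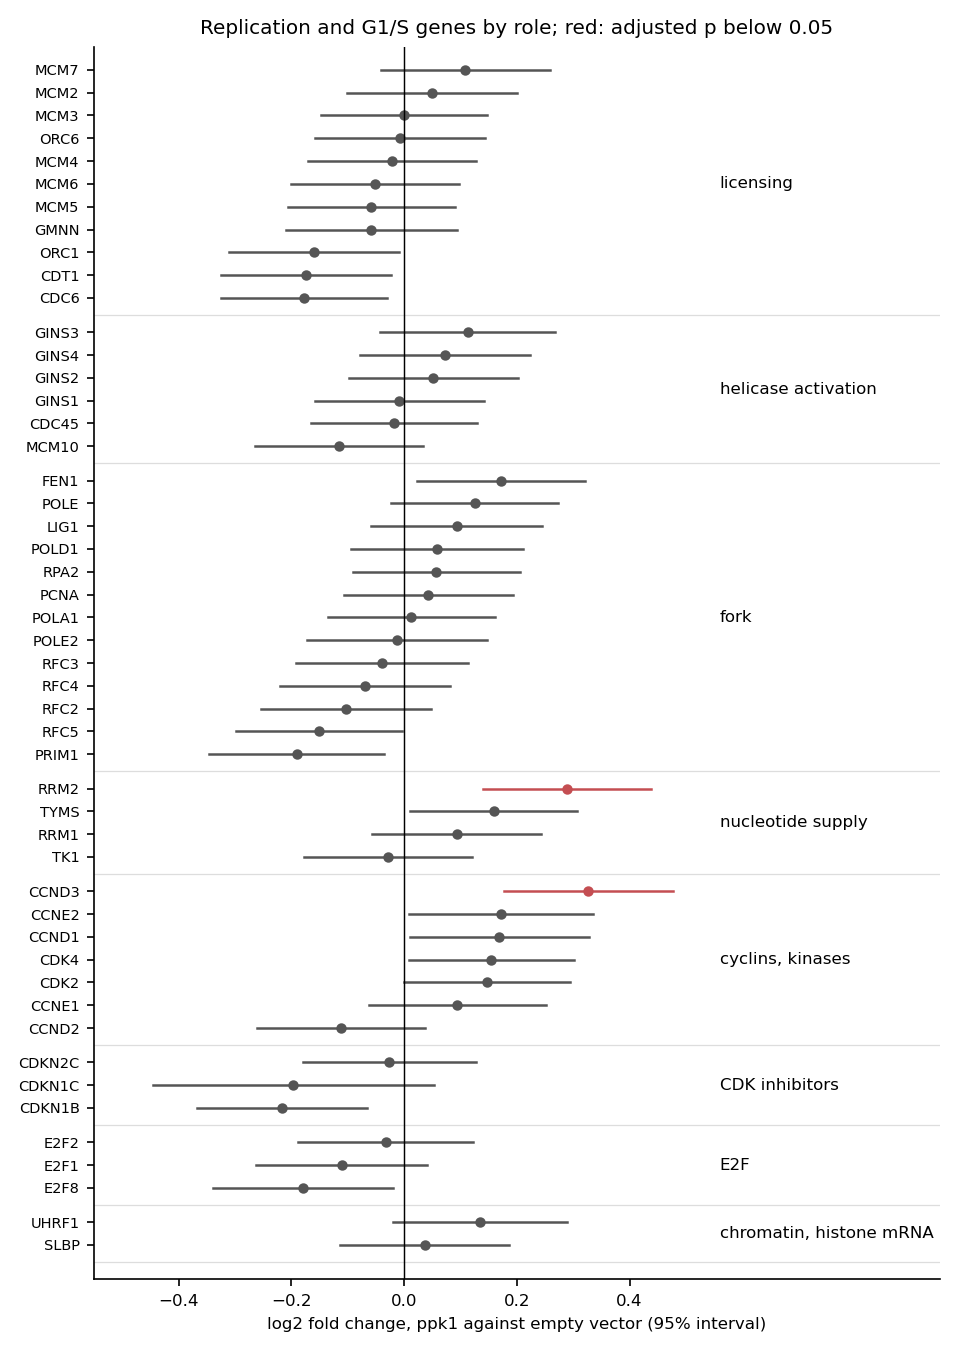
Log2 fold change of each member, ppk1 against empty vector, with its 95% interval, grouped by role; red marks an adjusted p below 0.05. RRM2 (0.29) and CCND3 (0.33) are red, and no interval reaches a 1.5-fold change.

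Among the genes of nucleotide supply, RRM2, the small subunit of ribonucleotide reductase and the enzyme's S phase limiting part, rose with ppk1. It stood at 178, 178 and 175 CPM in empty vector libraries B, C and D and at 205, 239 and 207 CPM in the ppk1 libraries. All 3 ppk1 libraries lay above all 3 controls, and ppk1 library C was the highest. The log2 fold change was 0.29 (SE 0.07, n = 3 pairs, 95% interval 0.14 to 0.44) and edgeR's adjusted p was 0.00733. The 3 pairs differed by 0.20, 0.43 and 0.24. Without pair C the log2 fold change was 0.22 and the edgeR adjusted p 0.51, in a fit that called 2.06% of all genes. Without the replicate block the adjusted p was 0.0637, in a fit that called 2.4% of all genes. In RRM2 (chromosome 2) 20.2% of the 50-base stretches also occur in other genes. The gene sharing the largest number is AC007240.1, an overlapping gene model on the same strand. Reads lying wholly within shared stretches cannot be told apart by sequence. How the counting treated them is not given in the sources used here.

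TYMS, thymidylate synthase, was at 142, 137 and 131 CPM with empty vector and at 149, 165 and 144 CPM with ppk1. Its groups did not overlap, but the log2 fold change of 0.16 (SE 0.07) was not called, with an edgeR adjusted p of 0.174. RRM1, the large reductase subunit, had a log2 fold change of 0.09, and the salvage enzyme TK1, thymidine kinase, one of -0.03; neither passed. Of the 4 members of this role 1 was called, or 25%, against 9.08% of all genes.

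Among the G1/S cyclins and kinases, CCND3, which encodes cyclin D3, a partner of CDK4 and CDK6, rose with ppk1 and had the smallest p of all 49 members. It stood at 37.3, 40.0 and 35.0 CPM with empty vector and at 45.4, 50.5 and 45.0 CPM with ppk1. Every ppk1 library was above every control. The log2 fold change was 0.33 (SE 0.07, n = 3 pairs, 95% interval 0.18 to 0.48), with an edgeR adjusted p of 0.0025, and the pairs differed by 0.28, 0.34 and 0.36. Without the replicate block the adjusted p was 0.0497, and without pair C it was 0.186 at a log2 fold change of 0.32. CCND3 (chromosome 6) overlaps a gene on the opposite strand, and whether the counting used strand is not given in the sources used here.

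The other D cyclins did not pass. CCND1 was at 25.9, 21.1 and 21.9 CPM with empty vector and 29.1, 23.7 and 24.7 CPM with ppk1. Its groups overlapped because library B was high in both, while the pairs differed by a similar 0.16, 0.16 and 0.18 (log2 fold change 0.17, SE 0.08, edgeR adjusted p 0.179). CCND2 was the highest D cyclin per kilobase of merged exon. It was at 96.8, 79.4 and 83.7 CPM with empty vector and 89.5, 70.4 and 80.9 CPM with ppk1. Its level was lower in each pair, but the groups overlapped (log2 fold change -0.11, SE 0.07, edgeR adjusted p 0.38). The summed level of the 3 D cyclins was 160.0, 140.5 and 140.6 CPM with empty vector and 164.0, 144.6 and 150.6 CPM with ppk1, and these groups overlapped.

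Cyclin E and its kinase activate origins at the start of S phase. CCNE1 was at 25.2, 26.5 and 25.5 CPM with empty vector and 26.2, 29.6 and 26.7 CPM with ppk1 (log2 fold change 0.09, SE 0.08, edgeR adjusted p 0.495). CCNE2 was at 23.7, 27.7 and 33.8 CPM with empty vector and 31.2, 31.2 and 32.5 CPM with ppk1. Its 3 ppk1 libraries were nearly level while the controls spread over a wide range, and it was not called (log2 fold change 0.17, SE 0.08, edgeR adjusted p 0.184). The pairs differed by 0.40, 0.17 and -0.06. Without pair B the log2 fold change was 0.055, and without pair D it was 0.26 and called, with an edgeR adjusted p of 0.0206.

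Both kinases had groups that did not overlap, as did 25.6% of all genes, and neither was called. CDK2 was at 123, 119.8 and 131 CPM with empty vector and 137, 139.6 and 137 CPM with ppk1 (log2 fold change 0.15, SE 0.07, edgeR adjusted p 0.214). CDK4, the partner of cyclin D, was at 189.8, 207 and 211 CPM with empty vector and 215, 236 and 226 CPM with ppk1 (log2 fold change 0.15, SE 0.07, edgeR adjusted p 0.182). In this role 6 of 7 genes had a positive log2 fold change, CCND2 being the exception, against 53.1% of all genes, and 1 of 7 was called higher (14.3%, against 4.04% of all genes). The median of the 7 was 0.15, beside 0.0149 for all genes tested. By pair the median was 0.16 in B, 0.17 in C and 0.07 in D. Outside the members, 23 other G1/S regulators had a median of -0.0122, with 11 above and 12 below 0. Of those 23, 0 were called higher and 2 lower (8.7% called, against 9.08% of all genes).

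**Figure D3:**
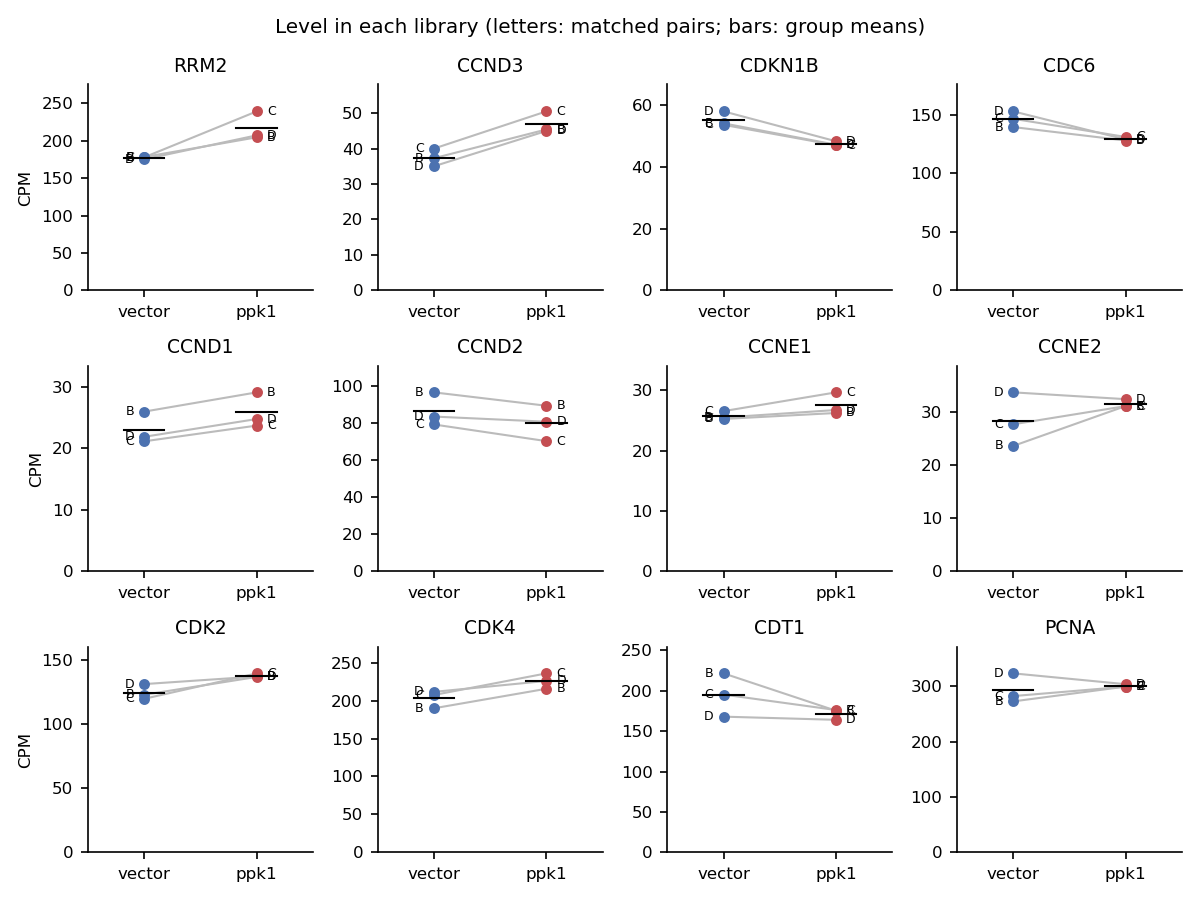
Level in CPM of 12 members in each library, with the axis from 0; grey lines join the matched libraries B, C and D and black bars are group means. RRM2 and CCND3 are higher with ppk1 in every pair (0.20 to 0.43 and 0.28 to 0.36 on the log2 scale), whereas CDT1 and CCNE2 spread more among the controls than among the ppk1 libraries.

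Of the CDK inhibitors, CDKN1B encodes p27, which holds cyclin E-CDK2 inactive, and it was the member closest to a call on the lower side. It was at 54.0, 53.5 and 57.9 CPM with empty vector and 47.1, 46.9 and 48.2 CPM with ppk1, without overlap and lower in all 3 pairs. The log2 fold change was -0.22 (SE 0.07, 95% interval -0.37 to -0.07), and the edgeR adjusted p of 0.0566 missed the threshold. With RLE scaling, upper-quartile scaling or a filter at a mean of 50 counts it was 0.0479, 0.0383 and 0.0478, so those settings called it, beside 5.19%, 4.77% and 5.12% of all genes called lower. It was not called without the low-count filter (edgeR adjusted p 0.11), without the replicate block (0.119), by DESeq2 (0.093) or with any pair left out (highest 0.508, without C). In all it was called in 4 of 10 alternatives.

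CDKN1C, p57, was at 4.43, 4.72 and 5.02 CPM with empty vector and 4.48, 4.07 and 3.73 CPM with ppk1 (log2 fold change -0.20, SE 0.12, edgeR adjusted p 0.346). The pairs differed by 0.01 in B, -0.21 in C and -0.42 in D. CDKN2C, the p18 inhibitor of CDK4 and CDK6, was at 36.1, 36.9 and 36.9 CPM with empty vector and 32.4, 38.6 and 37.3 CPM with ppk1. Its log2 fold change was -0.03 (SE 0.08, edgeR adjusted p 0.872), and no inhibitor passed the test.

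Among the E2F factors, E2F1, an activating member of the family, was at 83.3, 80.3 and 70.2 CPM with empty vector and 71.97, 72.7 and 71.4 CPM with ppk1. The ppk1 libraries lay inside the range of the controls (log2 fold change -0.11, SE 0.08, edgeR adjusted p 0.394). E2F2, the other activator on the list, had a log2 fold change of -0.03. E2F8, a repressive family member, came to -0.18 with an unadjusted p of 0.0289 and an edgeR adjusted p of 0.153, and its groups did not overlap. With all 3 pairs and no GC offset, 0 of the 3 factors were called by edgeR or DESeq2. At an unadjusted p below 0.05 there was 1, or 33.3%, against 23.8% of all genes. E2F1 was called lower with the GC offset described at the end.

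With all 3 pairs and no GC offset, none of the 11 origin licensing genes, geminin included, was called by edgeR or DESeq2. An unadjusted p below 0.05 was found for 3 of the 11, or 27.3%, against 23.8% of all genes. Those 3 were CDC6, CDT1 and ORC1. CDC6 was at 139.7, 147 and 153 CPM with empty vector and 128, 131 and 129 CPM with ppk1, without overlap (log2 fold change -0.18, SE 0.07, edgeR adjusted p 0.121). CDT1 was at 222, 195 and 168 CPM with empty vector and 175, 176 and 164 CPM with ppk1 (log2 fold change -0.17, SE 0.07, edgeR adjusted p 0.138). Here the groups overlapped, and the pairs ran from -0.34 in B to -0.03 in D. CDT1 was called without pair D (log2 fold change -0.27, edgeR adjusted p 0.00717) and was at -0.09 without pair B. ORC1, the largest subunit of the origin recognition complex, came to -0.16 on the log2 scale with separate groups (SE 0.08, edgeR adjusted p 0.179), while ORC6 was at -0.0068. CDT1 and ORC1 were also called with the GC offset described at the end.

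The MCM2-7 helicase subunits had log2 fold changes from -0.06 (MCM5) to 0.11 (MCM7). MCM2 was at 314, 296 and 269 CPM with empty vector and 289.9, 320.3 and 299.9 CPM with ppk1, lower in pair B and higher in pairs C and D (log2 fold change 0.05, SE 0.08, 95% interval -0.10 to 0.20, edgeR adjusted p 0.735). Summed over the 6 subunits, the level was 2074, 2057 and 2055 CPM with empty vector and 2040, 2167 and 2068 CPM with ppk1. GMNN, geminin, which binds CDT1 to stop relicensing, was at 121, 130.0 and 159 CPM with empty vector and 124, 134 and 133 CPM with ppk1 (log2 fold change -0.06, SE 0.08, edgeR adjusted p 0.692).

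CDC45, GINS1 to GINS4 and MCM10 turn the loaded MCM ring into a working helicase. CDC45, which joins the ring, was at 116, 119.6 and 122 CPM with empty vector and 118, 116 and 119.5 CPM with ppk1. The levels nearly coincided, and the 95% interval of its log2 fold change of -0.02 ran from -0.17 to 0.13 (edgeR adjusted p 0.912). The 4 GINS genes lay between -0.01 (GINS1) and 0.11 (GINS3), and MCM10 was at -0.12. Of these 6 genes 0 were called by edgeR or DESeq2, and 0 had an unadjusted p below 0.05, against 23.8% of all genes.

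With all 3 pairs, 0 of 13 replication fork genes were called by edgeR or DESeq2. At an unadjusted p below 0.05 there were 3, or 23.1%, against 23.8% of all genes. PCNA, the clamp that tethers the polymerases, was at 272, 282 and 323 CPM with empty vector and 299, 299 and 303 CPM with ppk1 (log2 fold change 0.04, SE 0.07, edgeR adjusted p 0.776). The ppk1 values lay within the range of the controls. POLE, the catalytic subunit of the leading strand polymerase epsilon, was at 254, 244 and 217 CPM with empty vector and 258, 269 and 252 CPM with ppk1 (log2 fold change 0.13, SE 0.07, edgeR adjusted p 0.306). The 3 with an unadjusted p below 0.05 were the flap nuclease FEN1 (log2 fold change 0.17), the primase subunit PRIM1 (-0.19) and the clamp loader subunit RFC5 (-0.15), with edgeR adjusted p of 0.141, 0.114 and 0.195. PRIM1 was called lower without pair B (log2 fold change -0.25, edgeR adjusted p 0.0488). FEN1 overlaps FADS2 on the same strand.

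The other fork genes were closer to 0. The clamp loader subunits RFC2, RFC3 and RFC4 had log2 fold changes of -0.10, -0.04 and -0.07. The polymerase genes POLA1, POLD1 and POLE2 had 0.01, 0.06 and -0.01, the ligase LIG1 that seals Okazaki fragments 0.09, and RPA2, a subunit of the protein that covers single-stranded DNA, 0.06. Outside the fork, SLBP, which binds the stem-loop of histone mRNA, had a log2 fold change of 0.04, and UHRF1, which maintains DNA methylation behind the fork, one of 0.13. Neither of these was called.

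By promoter, the 15 members holding the E2F letters had a median log2 fold change of 0.013 with 0 called. The 24 members in the table without them had a median of -0.0101 with RRM2 and CCND3 called. Over all genes tested 9.08% were called. The genes with the letters ranged from -0.17 to 0.16. With the GC offset described at the end, CDT1 and E2F1 of the 15 were called lower, and CDKN1B and ORC1 of the 24. That setting called 6.96% of all genes lower.

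The same test gave values for 74 other genes of the pathway. Of these 5 were called higher and 4 lower, or 12.2%, beside the 9.08% of all genes. The higher ones were POLE4, an accessory subunit of polymerase epsilon (log2 fold change 0.44, edgeR adjusted p 0.000453), SAMHD1, which degrades deoxynucleotides (0.28, adjusted p 0.0122), DCTPP1, which hydrolyses dCTP (0.26, adjusted p 0.0183), TOP1, the topoisomerase that relaxes DNA ahead of the fork (0.25, adjusted p 0.0204), and CTPS1, which makes CTP (0.22, adjusted p 0.0444). The lower ones were ATAD5, the unloader of PCNA (log2 fold change -0.32, edgeR adjusted p 0.00337), RBL1, which encodes the pocket protein p107 (-0.29, adjusted p 0.00791), RRM2B, the p53-inducible small subunit of ribonucleotide reductase (-0.26, adjusted p 0.0255), and CDKN2B, the p15 inhibitor of CDK4 and CDK6 (-0.29, adjusted p 0.0424). The calls of RRM2B, CDKN2B and CTPS1 depended on more settings than the block and pair C. RRM2B was not called by DESeq2 (adjusted p 0.0717) or without pair D (-0.18, edgeR adjusted p 0.141). CDKN2B was not called by DESeq2 (adjusted p 0.178), without the low-count filter (edgeR adjusted p 0.0624) or without pair B (0.107). CTPS1 was not called with RLE scaling (edgeR adjusted p 0.0512), upper-quartile scaling (0.0643) or without pair B (0.0927). Without pair C 0 of the 74 were called in either direction by edgeR, against 2.06% of all genes. In that fit 1 was higher and 6 lower at an unadjusted p below 0.05. Without the replicate block 1 of the 74 was called, RBL1, against 2.4% of all genes.

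The cell-cycle regulators CDKN1A, RB1, CCNA2 and CDK6 were not called. CDKN1A, the p21 inhibitor, was at 48.3, 40.6 and 35.0 CPM with empty vector and 48.4, 42.0 and 41.0 CPM with ppk1 (log2 fold change 0.09, SE 0.08, edgeR adjusted p 0.496). RB1, the retinoblastoma gene, had a log2 fold change of -0.08 (edgeR adjusted p 0.547), CCNA2, the S and G2 cyclin, one of -0.01 (0.943), and CDK6 one of 0.12 (0.335).

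For comparison with the next phase of the cycle, 30 G2/M genes had a median log2 fold change of -0.0903, with 24 of 30, or 80%, below 0 against 46.9% of all genes tested. Of these 1, HMMR (-0.44, edgeR adjusted p 0.000147), a spindle-associated protein, was called lower (3.33%, against 5.04% of all genes). HMMR was at 106, 122 and 169.7 CPM with empty vector and 95.4, 89.9 and 102 CPM with ppk1, without overlap, and its adjusted p was 0.0908 without the replicate block. The marker MKI67 was at 428, 439.6 and 489 CPM with empty vector and 415, 421 and 423 CPM with ppk1 (log2 fold change -0.11, edgeR adjusted p 0.413). CCNB1 had a log2 fold change of 0.01 and CDK1 one of -0.10, and neither was called. The median G2/M gene differed by 0.0141 in pair B, -0.0352 in pair C and -0.222 in pair D, whereas the members had 0.0187, 0.0620 and -0.0467. The G2/M median was -0.05 with the GC offset and -0.0172 without pair D. Between empty vector libraries, the G2/M genes' D minus B difference had a Pearson correlation of -0.839 with GC content, a property taken up below for the members. The difference between the lists was not tested.

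**Figure D4:**
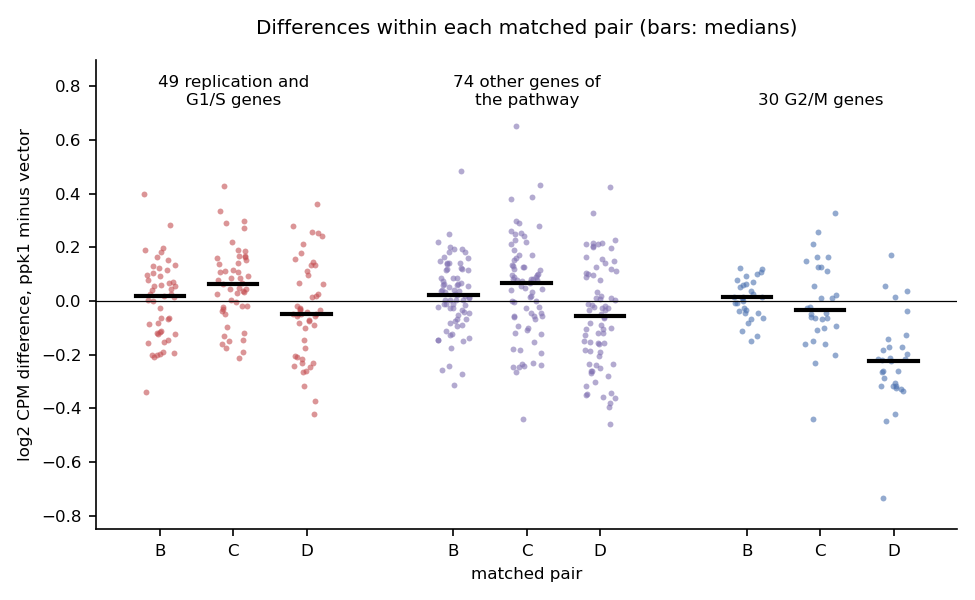
Log2 CPM difference, ppk1 minus empty vector, of every gene in each matched pair, for the 49 members, 74 other pathway genes and 30 G2/M genes; bars are medians. The members' medians lie near 0 in each pair (0.0187, 0.0620 and -0.0467), and the G2/M genes of pair D lie lowest (-0.222).

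The SD among the empty vector libraries exceeded that among the ppk1 libraries for 30 of 49 members (61.2%, against 58% of all genes tested). The differences between empty vector libraries followed GC content, a property examined after the values were seen. The median member differed by 0.155 (log2, regardless of direction) between empty vector libraries D and B, and by 0.0446 between ppk1 libraries D and B. Across the 49 members, which share these libraries, the empty vector difference D minus B had a Pearson correlation of -0.70 and a Spearman correlation of -0.71 with the GC percentage of the longest transcript. Over all genes tested the same values were -0.44 and -0.49, and between the ppk1 libraries the members' values were -0.18 and -0.21. The extremes were CCNE2, with 36.9% GC and a D minus B difference of 0.51, and CDT1, with 64.9% GC and one of -0.40. Between groups, the members' log2 fold changes had a Pearson correlation of 0.031 and a Spearman correlation of 0.109 with GC. These were 0.393 and 0.442 for the 74 other pathway genes, 0.651 and 0.54 for the 30 G2/M genes and 0.132 and 0.221 for all genes tested.

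With a GC offset for each library, a setting added after the values were seen, 13% of all genes were called. Among the members 3 were called higher (RRM2, CCND3 and CCNE2), beside 6.09% of all genes, and 4 lower (CDT1, CDKN1B, E2F1 and ORC1), beside 6.96%. RRM2 then had a log2 fold change of 0.31 and an edgeR adjusted p of 0.000271, and CCND3 one of 0.27 with 0.00137. CCNE2 had 0.23 (adjusted p 0.01), CDT1 -0.26 (0.00132), CDKN1B -0.21 (0.0123), E2F1 -0.19 (0.0204) and ORC1 -0.18 (0.0372).

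**Figure D5:**
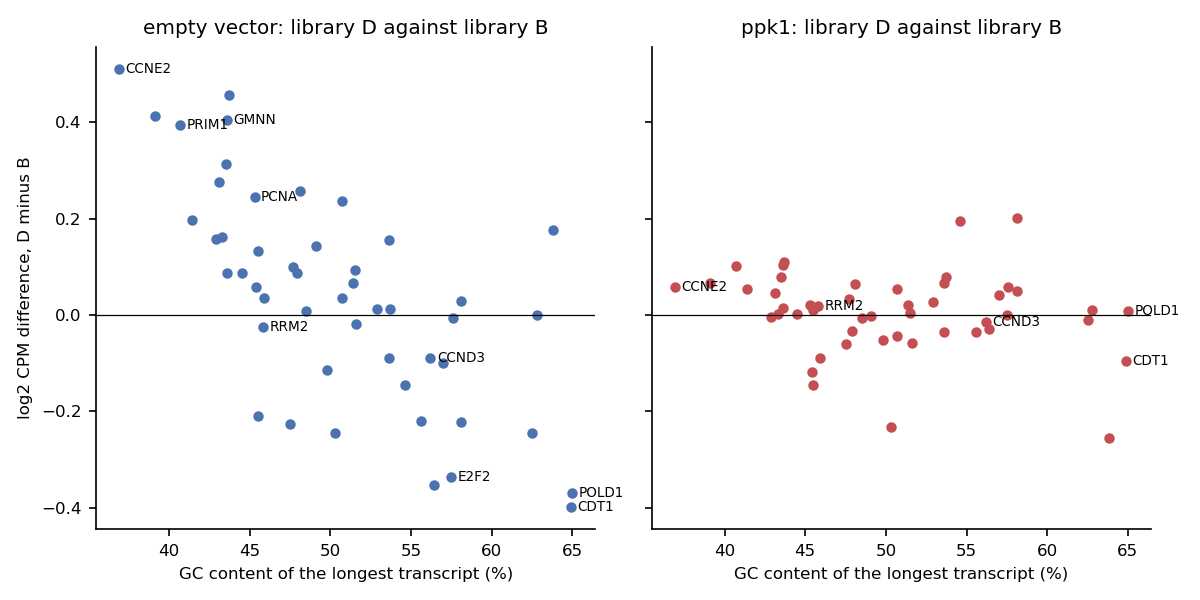
Log2 CPM difference between libraries D and B of the same group for each member against the GC content of its longest transcript, for empty vector (left) and ppk1 (right). The left panel slopes from CCNE2 (0.51 at 36.9% GC) down to CDT1 (-0.40 at 64.9%), and the right panel is nearly flat, with a Pearson correlation of -0.18.

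Of the 49 members, 5 overlap exons of another gene on the same strand (PRIM1, POLD1, FEN1, RRM2 and CCND2), and 19 overlap one on the opposite strand. In 6 members (ORC6, PRIM1, POLD1, RRM2, CCND2 and UHRF1) more than 5% of the 50-base stretches also occur in another gene. How the counting treated such reads is not given in the sources used here, so the values of these genes are uncertain to that extent.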

How the data were processed

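The authors deposited 1 table of raw counts per gene for the 6 libraries. Per the submitters' processing notes, the tools named were bcl2fastq 2.20, Trimmomatic, STAR, HTSeq, edgeR, DESeq, Cufflinks and Cuffdiff, without their roles. The build, annotation and strand setting are not given in the sources used here. Per the labels' protocols, poly(A) RNA was prepared with a directional kit. No row lacked a gene name.

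The deposited counts were tested with edgeR 4.0.16 (R 4.3.3): filterByExpr with a minimum count of 10, TMM, a quasi-likelihood fit on group and replicate letter, and Benjamini-Hochberg adjustment over all 19574 genes. CPM use TMM-scaled totals; log2 CPM differences within pairs use a prior count of 2. A 95% interval is the fold change with its standard error and the fit's degrees of freedom; intervals are not adjusted for the number of genes. Exon length (merged exons of all transcripts), overlap and shared sequence come from GENCODE 29, matched by Ensembl ID, and GC content from the longest transcript. Scripts were tested on simulated data. With 3 pairs, an exact permutation test could not reach the threshold, so none was run.

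The series' design text states that libraries of one letter are matched biological replicates. As a check, same-letter libraries deviated from their group means with correlations of 0.109, 0.135 and 0.0476 over all genes tested. Over those averaging 200 counts or more these were 0.239, 0.399 and 0.247. Libraries of different letters had -0.12 to -0.00506 over all genes tested and -0.307 to -0.0625 at 200 counts or more. Deviations from a group mean are tied to each other, so these values are not independent of the same-letter ones.

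Alternatives were no block, 2 other scalings, 2 other filters, DESeq2 1.42.0, each pair left out and, added after the values were seen, a GC offset (lowess of log2 CPM on GC, span 0.3). Per-library values are given for called members and for 20 members whose product defines a step; other pathway genes are named if called, with CDKN1A, RB1, CCNA2 and CDK6 in any case, and G2/M genes if called, with CCNB1, CDK1 and MKI67. ORC1, FEN1, PRIM1, RFC5 and the remaining members are named to account for every member. Members and lists were chosen with earlier results of these data known.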

Additional observations from a re-analysis of the deposited data

How the results depend on the processing

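Without the replicate block edgeR called 470 genes in place of 1777, 1 member higher (CCND3) and 0 lower, and of the 74 other pathway genes 0 higher and 1 lower. That fit called 0.455% of all genes higher and 1.95% lower. DESeq2 with the block called 755 genes, or 4.4% of those it tested, and the same 2 members (RRM2 and CCND3). It called 5 other pathway genes higher and 2 lower, beside 1.89% and 2.51% of all genes. RLE scaling, upper-quartile scaling and a filter at a mean of 50 counts each called 1 member lower, CDKN1B. The GC offset with the replicate block called 2554 genes, with 3 members higher and 4 lower. It called 11 of the 74 other pathway genes higher and 6 lower, beside 6.09% and 6.96% of all genes. Leaving out each pair in turn gave 406 (without C) to 2435 (without B) genes called. Of the members 0 (without C) to 3 (without D) were called higher. Between 0 (without C) and 1 member was called lower (PRIM1 without B, CDT1 without D). Of the other pathway genes 0 to 5 were called higher and 0 to 7 lower. Over all genes, 0.415% were called higher without C, 3.37% without D and 6.5% without B. The shares called lower were 1.64%, 5.69% and 6.03%. The members' median log2 fold change stayed between -0.0287 (upper-quartile scaling) and 0.0042 (without D), and that of the G2/M genes between -0.149 (without B) and -0.0172 (without D).

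Of 66 named genes, all 49 members among them, 17 changed sign in at least 1 alternative, and none of these was called. With the GC offset MCM2 was at -0.0193, ORC6 at 0.0026, GINS1 at 0.0354, POLD1 at -0.0265, POLE2 at 0.0214, RFC3 at 0.0141 and CCNA2 at 0.0288. With upper-quartile scaling POLA1 was at -0.0089 and CCNB1 at -0.0104, and MCM3 was at 6.3e-05 without the replicate block and 0.00027 without a filter. Leaving out pairs in turn gave -0.0234 (without D) to 0.132 (without B) for MCM2, -0.117 (without C) to 0.0068 (without B) for MCM5, -0.0913 (without B) to 0.0049 (without D) for MCM6, -0.0627 (without C) to 0.0627 (without B) for ORC6, -0.109 (without B) to 0.0207 (without D) for GMNN, -0.0479 (without B) to 0.0042 (without D) for GINS1, -0.0039 (without B) to 0.0886 (without D) for PCNA, -0.0185 (without C) to 0.0482 (without D) for POLA1, -0.0607 (without D) to 0.149 (without B) for POLD1, -0.0861 (without B) to 0.0688 (without D) for POLE2, -0.118 (without B) to 0.0354 (without D) for RFC3, -0.0088 (without D) to 0.173 (without B) for LIG1, -0.136 (without D) to 0.0543 (without B) for E2F2, -0.0706 (without C) to 0.0402 (without B) for CDKN2C, -0.0519 (without C) to 0.0197 (without D) for CCNA2 and -0.0463 (without C) to 0.104 (without D) for CCNB1. CCNE2 and CDT1 were called without D (0.26 and -0.27), and CDT1 was at -0.09 and CCNE2 at 0.06 without B. The cause was not tested. RRM2 was called in 8 of 10 alternatives and CCND3 in 9 of 10. In every setting the median over all genes lay within 0.0149 of 0. The members' standard errors ran from 0.0729 (CDK4) to 0.0813 (CCNE2), except for CDKN1C at 0.124, which had the lowest counts.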
